A study of Mus musculus with 12 samples.

Results

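The data described here are the difference between 2 responses to doxycycline (Dox) in mouse embryonic stem (ES) cells on their way to a neural fate: the response after 4 days of Dox, at day 9 of differentiation, minus the response after 2 days, at day 7. It draws on 8 of the study's 12 Affymetrix arrays, all from the line rtTA-Dmrt5, in which Dox acts through the rtTA activator on an inducible Dmrt5 transgene. The 8 arrays fall into 4 groups of 2: day 9 labelled +Dox, day 9 labelled -Dox, day 7 labelled +Dox and day 7 labelled -Dox, written below as d9 +Dox, d9 -Dox, d7 +Dox and d7 -Dox. All groups were grown as a monolayer in the serum-free medium N2B27, and the +Dox cultures received Dox from day 5. The remaining 4 arrays are of the parental line rtTA at day 7, labelled +Dox and -Dox with 2 each, so what Dox does without the transgene was measured at day 7 only. The sources used here do not say whether rtTA-Dmrt5 is a single clone or whether replicates were separate cultures, so the p-values measure only the spread between these samples, which may be technical. Genes were admitted without regard to their values: all 18193 genes with a probe set annotated to a single gene symbol were tested.

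Dmrt5, whose current symbol is Dmrta2, is a transcription factor with a zinc-finger-like DM domain that takes part in patterning the dorsal forebrain, including the cortical hem, and the ventral midbrain. In monolayer culture ES cells lose pluripotency genes, become neural progenitors and then start to form neurons, so a culture at day 9 is also older than a culture at day 7. A response that differs between the days can therefore come with a change over time in the cultures with Dox, in those without it, or in both, and each side is given below.

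A response is the mean of a day's arrays labelled +Dox minus the mean of those labelled -Dox, on a log2 scale, and the difference is the day 9 response minus the day 7 response. The deposited values are robust multi-array average (RMA) values that have been centred on each probe set's median over the 12 arrays. A value is therefore a distance from that median and says nothing of how strongly a gene was expressed; a rough class of median level was recovered from the numerical spacing of the values. A gene was called at a Benjamini-Hochberg adjusted p under 0.05 in a limma fit over all 12 arrays.

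Dmrta2 itself was read by 1 probe set. It lay at -1.07 and -1.92 in d9 +Dox, 1.07 and 1.16 in d9 -Dox, -0.14 and -0.95 in d7 +Dox, and 1.91 and 1.85 in d7 -Dox. Both day 9 and both day 7 arrays labelled +Dox were below both arrays labelled -Dox of the same day, which is opposite to the direction that the label of an inducible Dmrt5 line implies. No source used here says whether the probe set lies within the transgene, so it may read only the cell's own gene. Every direction below rests on the labels as given. Its day 9 response was -2.61 (adjusted p = 0.000495), its day 7 response -2.42 (adjusted p = 0.00198), and the difference was -0.19 ± 0.47 (SE, adjusted p = 0.877), which did not pass. In the parental line the day 7 response of Dmrta2 was 0.10. The RefSeq promoter of Dmrta2 (GRCm38.p6, chr4:109977775-109978074, plus strand, 250 bases before to 50 after the start) is shown because Dmrta2 is the gene the line is built on; capitals mark 2 matches to ACANTGT, the core of the motif that DM-domain proteins bind, 137 and 55 bases before the start.

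Dmrta2 promoter: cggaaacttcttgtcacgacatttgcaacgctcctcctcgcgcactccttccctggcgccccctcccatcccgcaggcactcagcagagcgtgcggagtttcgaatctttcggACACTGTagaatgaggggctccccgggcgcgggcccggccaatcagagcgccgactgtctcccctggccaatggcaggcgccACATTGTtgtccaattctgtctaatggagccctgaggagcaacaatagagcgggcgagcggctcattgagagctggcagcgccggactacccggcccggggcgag

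The neural label was checked against markers by their recovered level class, a rough measure of each probe set's own signal; the upper class starts at a median log2 value of 8, and 32.9% of all genes were in it while 27.2% were under 4. Of 16 neural progenitor and radial glia genes 15 reached the upper class, as did 16 of 19 pan-neuronal genes. Of 13 endothelial and blood genes 0 reached it and 10 were under 4, while 5 of 18 ES-cell genes, 6 of 19 collagen and mesenchyme genes and 7 of 17 epithelium genes reached it. So did 6 of 14 neural crest genes, 4 of 17 mesoderm and endoderm genes and 4 of 12 glial genes. Of the ES-cell, epithelium and neural crest genes 0 were under 4. In the collagen and mesenchyme, mesoderm and endoderm, and glial lists 3 genes each were under 4. The d9 +Dox arrays stood apart technically in 4 measures. The mean of 18 hybridisation spike-in probe sets lay at -0.79 and -0.66 in d9 +Dox, 0.01 and 0.17 in d9 -Dox, -0.34 and -0.02 in d7 +Dox, and 0.10 and 0.19 in d7 -Dox, so that their response was -0.81 at day 9 and -0.32 at day 7. For Actb, the 3' minus the 5' probe set, which tracks RNA integrity, had a response of 0.24 at day 9 and -0.09 at day 7 (pooled SD 0.07). The same measure for Gapdh lay at 0.18 and 0.11 in d9 +Dox and at most at 0.05 in the other 6 rtTA-Dmrt5 arrays, with a response of 0.12 at day 9 and -0.04 at day 7 (pooled SD 0.04). The median absolute difference between replicates was 0.163 in d9 +Dox, against 0.121 in d9 -Dox, 0.099 in d7 +Dox and 0.104 in d7 -Dox. The 24 polyA control probe sets, added before amplification, had responses of -0.04 at day 9 and -0.07 at day 7. The part of these measures in the results was not tested.

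Among all genes, 441 had a Dox response that differed between the days, which is 2.42% of the 18193 tested. The difference was positive, meaning a response higher or less negative at day 9, in 260 genes (1.43%) and negative in 181 (0.995%). It was at least 2-fold in 202 genes (1.11%), positive in 119 (0.654%) and negative in 83 (0.456%). Called differences ran from 0.48 to 2.59 in size with a median of 0.96, and their standard errors from 0.11 to 0.44. Over all genes the median difference was 0.03. The day 9 response itself was called in 5129 genes (28.2%) and the day 7 response in 1262 (6.94%); in the parental line at day 7 the limma fit called 0 genes, with 929 at an unadjusted p under 0.05. The 2 responses share no arrays, and the difference tests them against each other directly. Few calls fell among dim genes: 37 of 4957 genes with a recovered level under 4 (0.746%), 247 of 7255 at 4 to 8 (3.4%) and 157 of 5981 at 8 or more (2.62%). Several genes named below were nevertheless in the class under 4. They were Cntn6, P2ry14, 3110039M20Rik, Lamp5, Wif1, Krtap17-1, Gad1, Sox7 and Neurod6. The number of calls depended on which of the 8 arrays entered: it rose without replicate 2 of d9 +Dox and fell without any other single array. Of the 82 called genes that were named by size of difference or as members of the lists below, 32 kept their call whichever of the 8 arrays was left out.

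The 441 genes were sorted by how the response moved. In 311 the response emerged, that is, only the day 9 response passed: 173 genes were higher and 138 lower in d9 +Dox than in d9 -Dox. In 59 both responses passed in the same direction and day 9 was the larger, and these are said to have grown (39 higher, 20 lower). In 53 the response faded, because only day 7 passed or day 7 was the larger (14 higher and 39 lower in d7 +Dox than in d7 -Dox). Over all genes, 16.9% were called higher and 11.3% lower with Dox at day 9, and 3.08% higher and 3.85% lower at day 7. In 18 both responses passed with opposite signs, and the response turned, in 9 genes each way. Each of the 441 genes had a called response on at least 1 of the days. The 2 responses were adjusted apart, with 5129 calls at day 9 and 1262 at day 7, so the cutoff was looser at day 9. In the limma fit Lamb2 passed at day 9 with 0.34 ± 0.11 (SE, adjusted p = 0.0399). Trim25 did not pass at day 7 with 0.40 ± 0.11 (SE, adjusted p = 0.0528). The part of this in the size of the emerged class was not tested. The plot of the day 9 response against the day 7 response shows the 4 classes.

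**Figure D1:**
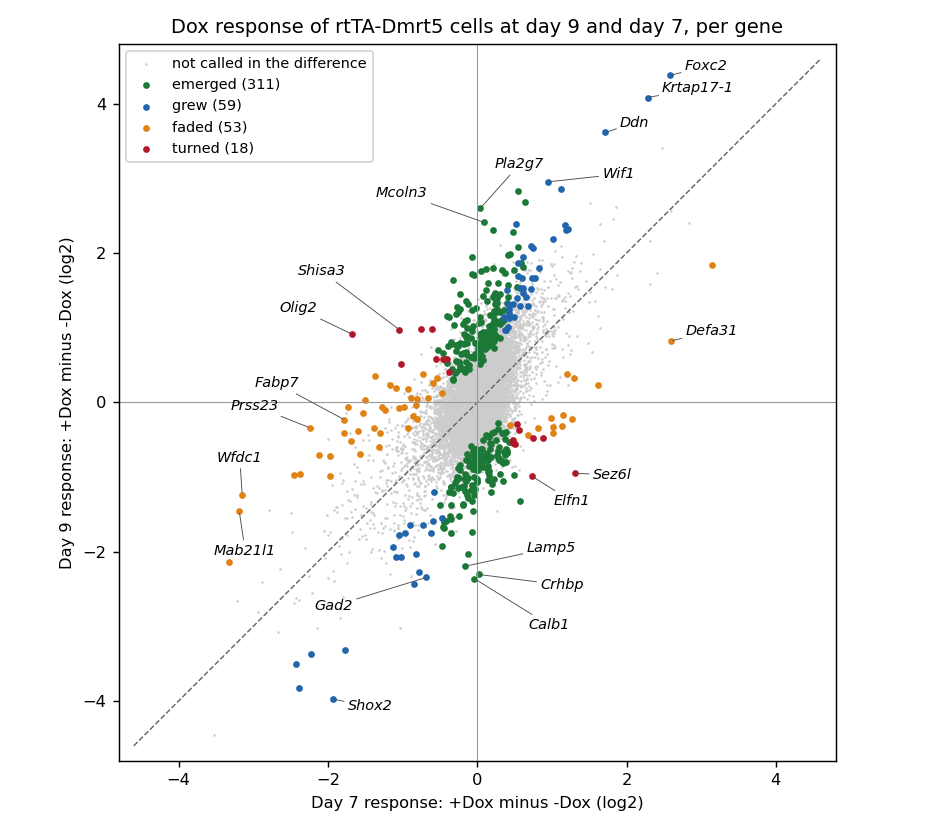
Each point is a gene, with the Dox response at day 9 (vertical axis, log2) against that at day 7 (horizontal axis, log2); the dashed line marks equal responses. The 311 emerged genes lie near the vertical axis, the 59 grown genes lie farther from 0 than the line, the 53 faded genes lie near the horizontal axis or nearer to 0 than the line, and the 18 turned genes lie in the upper left and lower right.

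The largest emerged increases were in Pla2g7, Mcoln3, Cntn6, P2ry14 and 3110039M20Rik. Pla2g7 encodes a secreted enzyme that breaks down platelet-activating factor. It lay at 0.71 and 0.48 in d9 +Dox, -1.97 and -2.04 in d9 -Dox, 0.07 and 0.26 in d7 +Dox, and 0.02 and 0.22 in d7 -Dox. The d9 -Dox arrays stood farthest apart, well below the other 6 arrays. Among those 6, both d9 +Dox arrays lay above all the day 7 arrays. The difference was 2.56 ± 0.16 (SE, adjusted p = 0.000726), with a response of 2.60 at day 9 and 0.04 at day 7. Mcoln3, a cation channel of endosomes and lysosomes, lay at 0.45 and 0.91 in d9 +Dox, -1.88 and -1.58 in d9 -Dox, 0.15 and 0.05 in d7 +Dox, and 0.01 and 0.0002 in d7 -Dox. It too was lowest in d9 -Dox, and d9 +Dox was above both day 7 groups; the difference was 2.32 ± 0.22 (SE, adjusted p = 0.00241). Its dimmer probe set had 0.17, and the mean of both 1.25 (adjusted p = 0.00995). From day 7 to day 9 Mcoln3 rose by 0.58 in the arrays labelled +Dox and fell by 1.73 in those labelled -Dox. Cntn6, a neuronal adhesion molecule of the immunoglobulin family, had a difference of 2.29 ± 0.34 (SE, adjusted p = 0.0125), which was not called without replicate 2 of d7 +Dox (adjusted p = 0.0537).

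P2ry14, a receptor for nucleotide sugars, and 3110039M20Rik, a transcript known by its clone name, differed from these on the side of the arrays labelled -Dox. P2ry14 lay at 2.89 and 1.82 in d9 +Dox, 0.08 and 0.02 in d9 -Dox, 0.52 and -0.07 in d7 +Dox, and -0.07 and 0.10 in d7 -Dox, with d9 +Dox alone high and its replicates far apart. Its difference was 2.10 ± 0.44 (SE, adjusted p = 0.0457), and of the 8 fits that leave out an array it was called only without replicate 2 of d9 +Dox; without the others the adjusted p ran from 0.0695 to 0.149. 3110039M20Rik rose by 1.84 from day 7 to day 9 with Dox, while its change without Dox, -0.20, did not pass; its difference was 2.04 ± 0.27 (SE, adjusted p = 0.00907).

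The largest emerged decreases were in Crhbp, Calb1, Lamp5, 4930481B07Rik and Minar2. Crhbp, which binds and holds corticotropin-releasing hormone, lay at -0.74 and -1.05 in d9 +Dox, 1.60 and 1.23 in d9 -Dox, 0.52 and 0.13 in d7 +Dox, and 0.14 and 0.47 in d7 -Dox. The day 7 groups overlapped, while at day 9 the arrays labelled +Dox were below and those labelled -Dox above all day 7 arrays. The difference was -2.32 ± 0.27 (SE, adjusted p = 0.00554). Calb1, the calcium buffer calbindin found in classes of interneurons and in some midbrain dopaminergic neurons, lay at -0.70 and -1.12 in d9 +Dox, 1.49 and 1.41 in d9 -Dox, -0.11 and -0.23 in d7 +Dox, and -0.38 and 0.11 in d7 -Dox, and differed by -2.32 ± 0.29 (SE, adjusted p = 0.00733). As for Crhbp, d9 +Dox was the lowest group and d9 -Dox the highest. Its 3 dimmer probe sets had -0.98, -0.43 and -0.11, and the mean of all 4 had -0.96 (adjusted p = 0.0202). Lamp5, a membrane protein of neuronal endosomes, lay at 0.36 and 0.72 in d9 +Dox, 2.77 and 2.70 in d9 -Dox, -0.20 and -0.28 in d7 +Dox, and -0.01 and -0.16 in d7 -Dox. Here both sides rose from day 7 to day 9, by 0.78 with Dox and 2.82 without, and the difference was -2.03 ± 0.18 (SE, adjusted p = 0.00224). The other 2 of the 5 were Minar2, at -1.89 ± 0.31 (SE, adjusted p = 0.0183), and the clone-named transcript 4930481B07Rik, at -1.90 ± 0.38 (SE, adjusted p = 0.0396). Minar2 lost its call without either array of d7 +Dox, either of d7 -Dox or replicate 1 of d9 -Dox (adjusted p 0.0503 to 0.0798), and 4930481B07Rik without any array other than the d9 +Dox ones (0.0699 to 0.138).

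**Figure D2:**
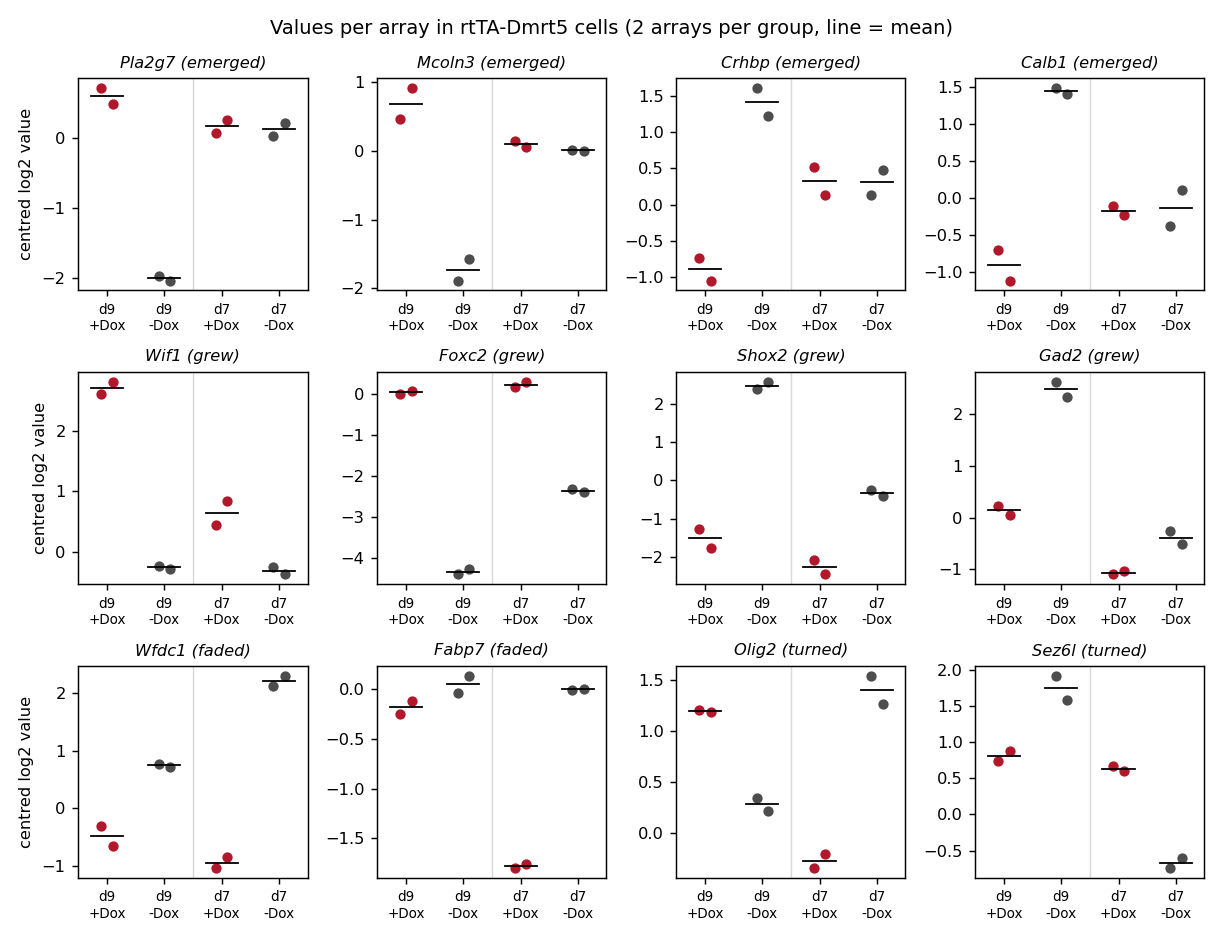
Centred log2 values of 12 genes in each of the 8 rtTA-Dmrt5 arrays, with d9 +Dox, d9 -Dox, d7 +Dox and d7 -Dox from left to right; points are arrays and lines are means of 2. In Pla2g7 and Mcoln3 the d9 -Dox arrays are low, in Crhbp and Calb1 the 2 day 9 groups part while the day 7 groups overlap, and in Olig2 and Sez6l the order of +Dox and -Dox is opposite on the 2 days.

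Responses that grew were led, among the increases, by Wif1. Wif1, a secreted inhibitor that binds Wnt proteins, lay at 2.60 and 2.81 in d9 +Dox, -0.23 and -0.28 in d9 -Dox, 0.45 and 0.84 in d7 +Dox, and -0.24 and -0.36 in d7 -Dox. The arrays labelled -Dox stayed together over both days, and those labelled +Dox were higher on both days and highest at day 9. The response was 2.95 at day 9 and 0.95 at day 7, a difference of 2.01 ± 0.21 (SE, adjusted p = 0.00465). Bnc1, a zinc-finger factor of basal epithelia and germ cells, and Krtap17-1, a keratin-associated hair protein gene, followed the same course: they rose by 1.80 and 1.55 from day 7 to day 9 with Dox, while their changes without Dox, -0.06 and -0.25, did not pass. Their differences were 1.87 ± 0.17 (SE, adjusted p = 0.00224) and 1.80 ± 0.21 (SE, adjusted p = 0.00532).

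Foxc2, a forkhead factor of mesenchyme, and Ddn, which encodes the dendrite and podocyte protein dendrin, grew by another route. Foxc2 changed by -0.18 from day 7 to day 9 with Dox, which did not pass, and fell by 1.98 without Dox; the difference was 1.80 ± 0.22 (SE, adjusted p = 0.00651). With Dox Ddn fell by 0.90 and without Dox it fell by 2.80, and the difference was 1.90 ± 0.28 (SE, adjusted p = 0.012). Ddn was not called without replicate 1 of d7 -Dox (adjusted p = 0.0582) or replicate 2 of d7 +Dox (0.0537).

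Growing decreases were led by Shox2, a homeobox factor, at -1.26 and -1.76 in d9 +Dox, 2.37 and 2.56 in d9 -Dox, -2.06 and -2.44 in d7 +Dox, and -0.25 and -0.40 in d7 -Dox. The d9 -Dox arrays were far above the rest, and both groups labelled +Dox were below both groups labelled -Dox. Between the days Shox2 rose by 0.75 with Dox and by 2.79 without it, and the difference was -2.05 ± 0.29 (SE, adjusted p = 0.0115); its dimmer probe set had -1.53. Gad2, an enzyme that makes the inhibitory transmitter GABA, lay at 0.23 and 0.05 in d9 +Dox, 2.63 and 2.34 in d9 -Dox, -1.10 and -1.03 in d7 +Dox, and -0.26 and -0.52 in d7 -Dox. It too rose on both sides, by 1.21 with Dox and 2.87 without it, and differed by -1.66 ± 0.20 (SE, adjusted p = 0.00636). Snhg11, a long noncoding RNA gene that hosts small nucleolar RNAs, and 4930578M01Rik moved in opposite directions on the 2 sides: with Dox they fell by 0.80 and 0.81, without Dox they rose by 0.69 and 0.77, and their differences were -1.49 and -1.58 (adjusted p = 0.00651 and 0.00936). G630016G05Rik differed by -1.54 ± 0.26 (SE, adjusted p = 0.0203), but its dimmer probe set had 0.04, and the mean of both probe sets, -0.75, was not called (adjusted p = 0.106). It also lost its call without replicate 1 of d7 -Dox, of d7 +Dox or of d9 +Dox, or without either d9 -Dox array (adjusted p 0.0573 to 0.0819).

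Responses that faded were mostly decreases at day 7. Wfdc1, a secreted protein with a whey acidic protein domain, lay at -0.31 and -0.66 in d9 +Dox, 0.78 and 0.73 in d9 -Dox, -1.03 and -0.84 in d7 +Dox, and 2.13 and 2.30 in d7 -Dox. It was lower with Dox on both days, but its d9 -Dox arrays were well below its d7 -Dox arrays. The response was -1.23 at day 9 and -3.15 at day 7, a difference of 1.91 ± 0.21 (SE, adjusted p = 0.00478). Prss23, a secreted serine protease, fell by 1.95 from day 7 to day 9 without Dox; with Dox its change, -0.04, did not pass. Its response was -2.24 at day 7, and at day 9 it was -0.34 and did not pass (difference 1.90 ± 0.26 SE, adjusted p = 0.00936). Mab21l1, needed for the mouse eye, rose on both sides, by 2.83 with Dox and 1.10 without, and differed by 1.73 ± 0.30 (SE, adjusted p = 0.0227). It kept its call only without either d9 +Dox array; without the others the adjusted p was 0.0546 to 0.0948.

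Fabp7, a fatty-acid binding protein that marks radial glia, showed fading on the side with Dox. It lay at -0.24 and -0.12 in d9 +Dox, -0.04 and 0.14 in d9 -Dox, -1.80 and -1.76 in d7 +Dox, and -0.002 and 0.002 in d7 -Dox. Only the d7 +Dox arrays stood apart, and by day 9 the groups with and without Dox were close together. The response was -0.23 at day 9, which did not pass, and -1.78 at day 7, a difference of 1.55 ± 0.14 (SE, adjusted p = 0.00224). Of the increases that faded, Rab26os, a transcript named for its position opposite Rab26, fell by 1.79 from day 7 to day 9 with Dox and differed by -1.48 ± 0.19 (SE, adjusted p = 0.00733). Tle2, a corepressor of the Groucho family, rose by 1.58 without Dox instead and differed by -1.45 ± 0.24 (SE, adjusted p = 0.0197). It lost its call without any 1 of the 4 day 7 arrays or without replicate 1 of d9 +Dox (adjusted p 0.0598 to 0.0789). Defa31, one of a family of nearly identical alpha-defensin genes that a probe set may not separate, differed by -1.77 ± 0.36 (SE, adjusted p = 0.0429) and lost its call without any single array (adjusted p 0.0558 to 0.143).

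Olig2 had the largest difference of all genes called. It encodes a basic helix-loop-helix (bHLH) factor of ventral progenitors that later give motor neurons and oligodendrocytes. It lay at 1.20 and 1.18 in d9 +Dox, 0.34 and 0.21 in d9 -Dox, -0.35 and -0.21 in d7 +Dox, and 1.54 and 1.26 in d7 -Dox. At day 9 both arrays labelled +Dox were above both labelled -Dox, and at day 7 both were below. The response was 0.92 at day 9 and -1.68 at day 7, a difference of 2.59 ± 0.28 (SE, adjusted p = 0.00465). Both sides contributed: Olig2 rose by 1.47 from day 7 to day 9 with Dox and fell by 1.12 without it. The RefSeq promoter of Olig2 (GRCm38.p6, chr16:91225300-91225599, plus strand) is shown because Olig2 had the largest difference; capitals mark a match to ACANTGT, 69 bases before the start.

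Olig2 promoter: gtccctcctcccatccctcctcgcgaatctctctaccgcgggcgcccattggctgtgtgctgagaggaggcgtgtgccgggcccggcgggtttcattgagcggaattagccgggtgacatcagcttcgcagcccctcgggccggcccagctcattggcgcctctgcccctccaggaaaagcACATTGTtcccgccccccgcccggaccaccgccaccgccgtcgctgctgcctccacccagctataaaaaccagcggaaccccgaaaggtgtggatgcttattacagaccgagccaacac

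A match to ACANTGT, a sequence that reads the same on both strands, is a description of letters and not of binding. It occurred in 2476 of 32851 RefSeq promoters of this length (7.54%). Of the 33 genes named by rule 25 had a promoter in the table, and 3 of them held a match: Olig2, Dmrta2 and P2ry14, the last in 1 of its 4 promoters. Over all genes called in the difference the share was 18 of 332 (5.42%), and over all genes tested 877 of 14452 (6.07%).

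The other turned genes with the largest differences were Sez6l, Elfn1, Car3, Shisa3 and Sparcl1. Sez6l, a brain membrane protein, lay at 0.73 and 0.87 in d9 +Dox, 1.92 and 1.59 in d9 -Dox, 0.67 and 0.60 in d7 +Dox, and -0.74 and -0.60 in d7 -Dox. Its change between the days with Dox, 0.17, did not pass, but it rose by 2.42 without Dox, so that the response was -0.95 at day 9 and 1.30 at day 7, a difference of -2.25 ± 0.20 (SE, adjusted p = 0.00224). Its dimmer probe set did not show this and had a difference of -0.03. Elfn1, a synaptic leucine-rich repeat protein, turned in the same way (-1.72 ± 0.21 SE, adjusted p = 0.00651). Car3, a carbonic anhydrase, turned through a fall of 1.26 with Dox (-1.36 ± 0.14 SE, adjusted p = 0.00326). In the other direction Shisa3, which holds back maturation of Wnt and Fgf receptors, rose by 1.59 with Dox and differed by 2.02 ± 0.19 (SE, adjusted p = 0.00241). Sparcl1, a matrix protein of the SPARC family, rose by 1.05 with Dox, fell by 0.68 without it, and differed by 1.73 ± 0.21 (SE, adjusted p = 0.00675).

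Over all called genes both sides moved. A change from day 7 to day 9 was called in 2950 genes in the arrays labelled +Dox (16.2%, with 10% higher and 6.19% lower) and in 2726 in those labelled -Dox (15%, with 7.88% higher and 7.11% lower). Among the 173 emerged increases, 111 rose with Dox and 84 fell without it, 28 passing on both sides. Among the 138 emerged decreases, 67 fell with Dox and 85 rose without it, 39 passing on both sides; 18 of the 138 rose with Dox, as Lamp5 did. Of the 39 growing increases 18 rose with Dox and 28 fell without it, and of the 20 growing decreases 8 fell with Dox and 15 rose without it. Of the 39 faded decreases 25 rose with Dox, among them Fabp7 and Mab21l1, and 18 fell without it, among them Prss23 and Wfdc1. Each of the 441 genes had a called change between the days on at least 1 side. The same arrays chose the genes, so these counts describe the calls and are no separate evidence.

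**Figure D3:**
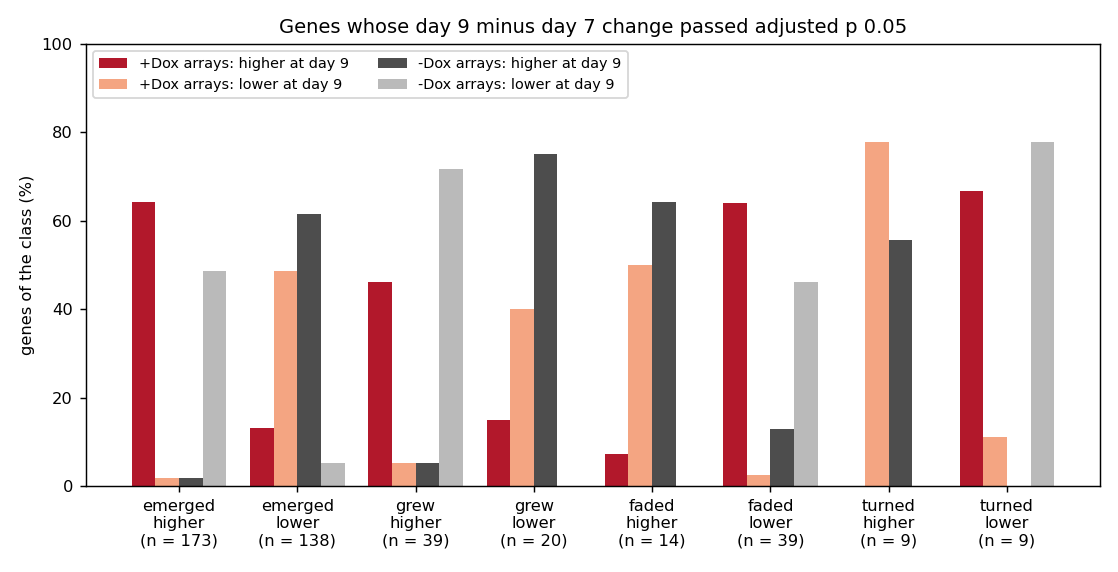
Share of each response class (vertical axis, percent of its genes) whose value was called higher or lower at day 9 than at day 7, within the arrays labelled +Dox and within those labelled -Dox; a gene can count on both sides. Emerged increases show rises with Dox (111 of 173) and falls without it (84), and emerged decreases show falls with Dox (67 of 138) and rises without it (85).

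Of the 535 measured genes in 36 lists of pathway and marker genes, 55 were called in the difference, 33 of them positive. All 36 lists are given below by their called members and median, to be read against 2.42% of genes called and a median difference of 0.03 over all genes. An unadjusted p under 0.05, given for some lists, was reached by 3305 of all genes (18.2%). Lists share some genes. They were chosen with earlier results of these data known, so their counts are a description and no separate evidence. Over all genes the response with Dox was called higher in 16.9% and lower in 11.3% at day 9. At day 7 it was called higher in 3.08% and lower in 3.85%.

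**Figure D4:**
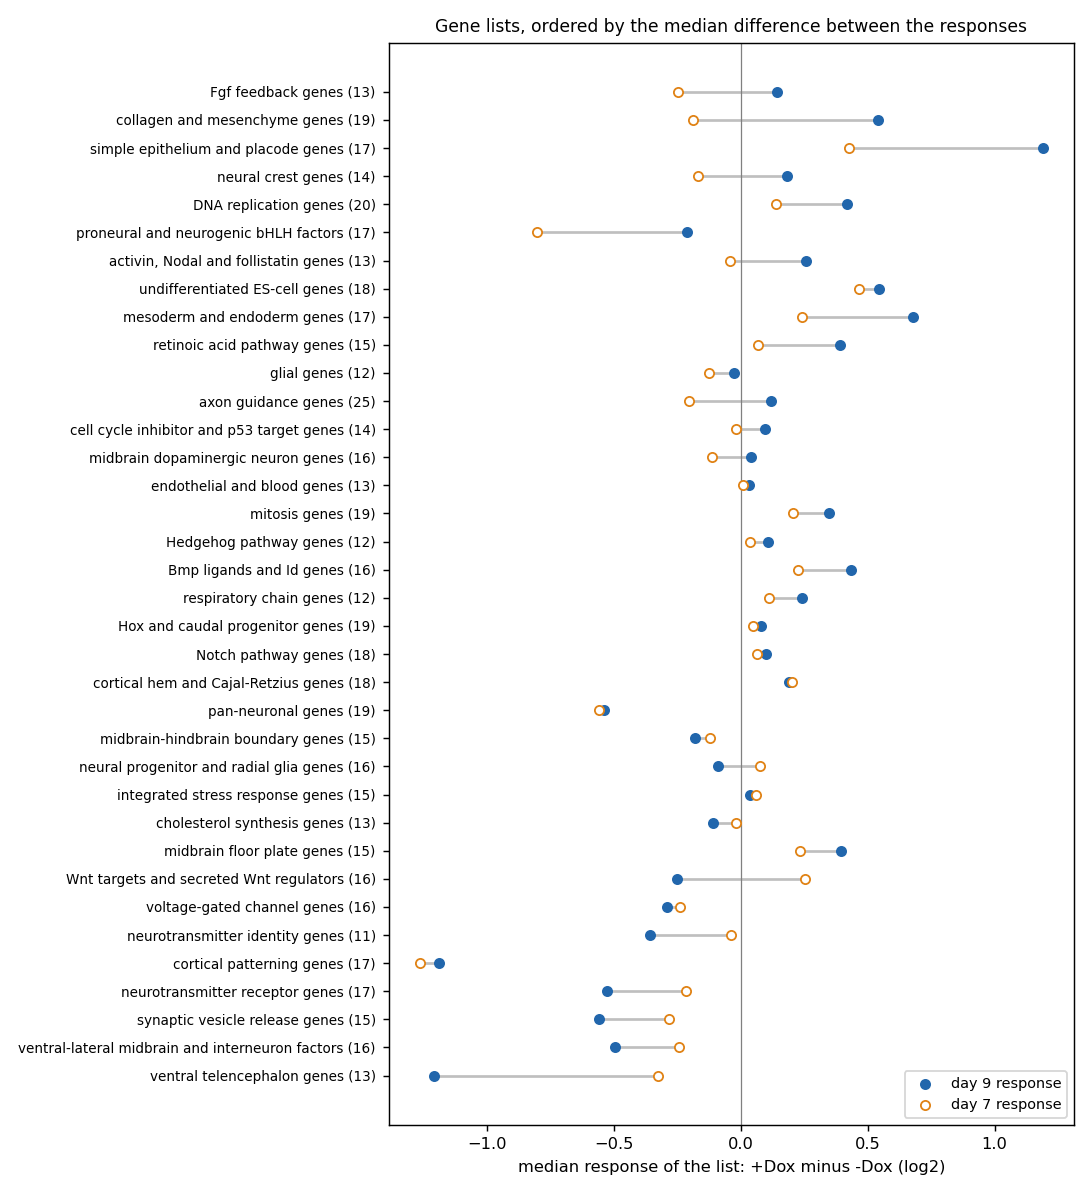
Median Dox response of each of 36 gene lists at day 9 (filled) and day 7 (open), log2, with the number of measured genes in brackets; lists run down the page in the order of their median difference, which need not equal the gap between the 2 medians. Fgf feedback, mesenchyme and epithelium genes stand at the top, and ventral telencephalon and ventral-lateral midbrain genes at the bottom.

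Genes of Fgf feedback had the highest median difference of the 36 lists, 0.65, and 5 of 13 were called, all positive. These genes are induced by Fgf signalling and mostly restrain it. The list's median response was 0.14 at day 9 and -0.25 at day 7, and 4 members were higher and 2 lower with Dox at day 9, against 1 higher and 5 lower at day 7. Il17rd, which encodes the receptor inhibitor Sef, lay at 0.16 and 0.29 in d9 +Dox, -1.43 and -1.55 in d9 -Dox, -0.26 and -0.22 in d7 +Dox, and -0.14 and -0.21 in d7 -Dox. Its d9 -Dox arrays were far below the rest, and the difference was 1.78 ± 0.16 (SE, adjusted p = 0.00224). Etv4, an ETS factor induced by Fgf, lay at 0.28 and 0.06 in d9 +Dox, -0.93 and -0.70 in d9 -Dox, -0.66 and -0.93 in d7 +Dox, and -0.32 and -0.06 in d7 -Dox. It was higher with Dox at day 9 and lower with Dox at day 7, a turn of 1.59 ± 0.20 (SE, adjusted p = 0.00723), although its dimmer probe set had -0.23. Spry1, an inhibitor of receptor tyrosine kinase signalling, emerged with a response of 1.06 at day 9 and -0.20 at day 7 (1.25 ± 0.18 SE, adjusted p = 0.0113). Dusp6, the phosphatase of Erk kinases, faded: its response was -0.52 at day 9 and -1.69 at day 7 (1.17 ± 0.22 SE, adjusted p = 0.0297). Egr1, an immediate early zinc-finger factor, rose from day 7 to day 9 on both sides, by 1.68 in the arrays labelled +Dox, and its difference was 0.68 ± 0.15 (SE, adjusted p = 0.0496). Of the remaining 8 members 7 had a positive difference and did not pass, as Dusp4 (0.65, adjusted p = 0.0778) and Etv5 (0.50, adjusted p = 0.0782), and the receptor Fgfr3 had -0.48 (adjusted p = 0.0713). Dusp6 and Egr1 each kept the call in 1 of the 8 fits that leave out an array; in the other fits the adjusted p was 0.058 to 0.109 and 0.0722 to 0.172.

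**Figure D5:**
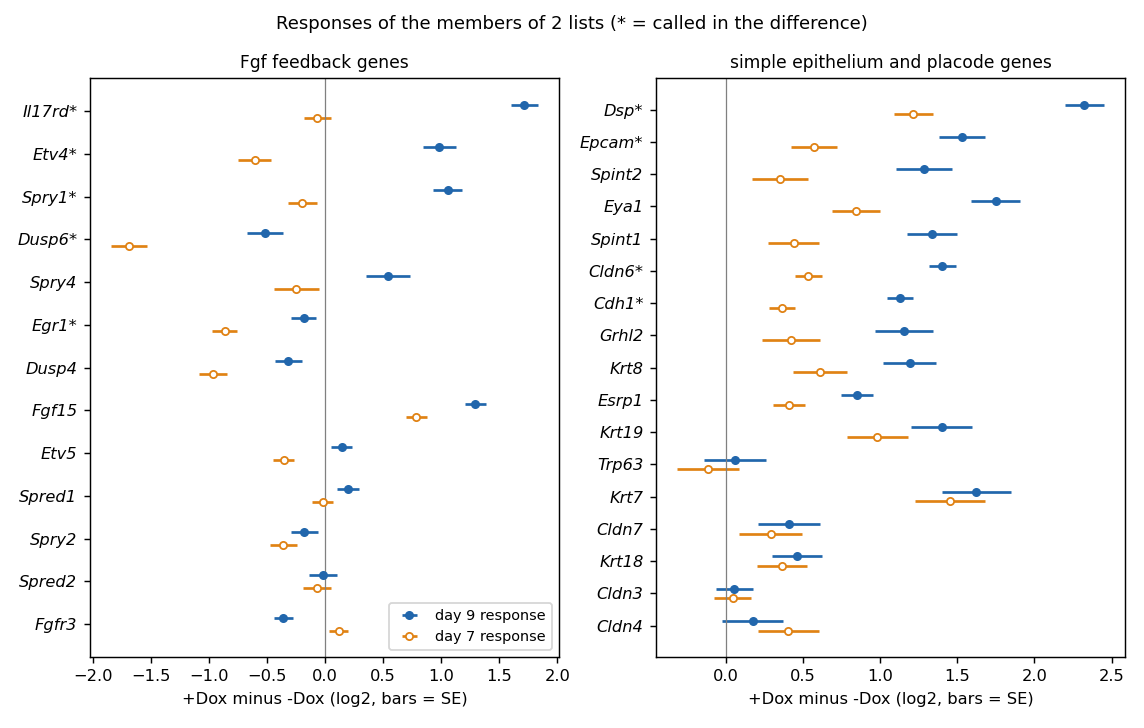
Dox response at day 9 (filled) and day 7 (open) of each measured Fgf feedback gene (left, 13 genes) and simple epithelium and placode gene (right, 17 genes), log2, with standard errors from the limma fit; an asterisk marks a called difference. In both panels most genes have the day 9 response to the right of the day 7 response, and 5 and 4 of them were called.

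Other signalling lists held 1 or 2 calls each. Among 16 Wnt targets and secreted regulators Wif1 and Notum were called (list median -0.10). Notum, a secreted enzyme that inactivates Wnt proteins, lay at 1.84 and 1.84 in d9 +Dox, -0.20 and -0.24 in d9 -Dox, 0.91 and 0.93 in d7 +Dox, and 0.17 and 0.19 in d7 -Dox. It was higher with Dox on both days and highest in d9 +Dox, a growth of 1.32 ± 0.11 (SE, adjusted p = 0.00224). Among 13 activin, Nodal and follistatin genes Inhbb and Fst were called (median 0.27). Inhbb, the beta B subunit of activin and inhibin, lay at 2.99 and 3.11 in d9 +Dox, 0.17 and 0.21 in d9 -Dox, 0.85 and 0.68 in d7 +Dox, and -0.32 and -0.40 in d7 -Dox. It rose by 2.29 from day 7 to day 9 with Dox and by 0.55 without, and grew by 1.74 ± 0.19 (SE, adjusted p = 0.00465); its dimmer probe set had 0.11. Fst, follistatin, which binds and blocks activin, turned: its response was 0.51 at day 9 and -1.02 at day 7 (1.54 ± 0.20 SE, adjusted p = 0.00733). Fst fell by 1.20 without Dox between the days, and its change with Dox, 0.33, did not pass.

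Id3, an inhibitor of bHLH factors and target of Bmp signals, was the 1 call among 16 Bmp ligands and Id genes (median 0.11), with 1.11 ± 0.20 (SE, adjusted p = 0.0263) and a fall of 1.17 without Dox. Cdon, a co-receptor for hedgehog proteins, was the 1 call of 12 hedgehog genes (median 0.12); its response was 2.38 at day 9 and 1.18 at day 7 (1.20 ± 0.14 SE, adjusted p = 0.00639). The dimmer probe set of Cdon had 0.18, and the mean of both, 0.69, was not called (adjusted p = 0.051). Jag1, a Notch ligand, was the 1 call of 18 Notch genes (median 0.07), at -0.79 ± 0.15 (SE, adjusted p = 0.0359). Crabp1, which binds retinoic acid in the cytoplasm, was the 1 call of 15 retinoic acid genes (median 0.21), at -0.89 ± 0.13 (SE, adjusted p = 0.0131), and fell on both sides between the days, by 1.69 with Dox and 0.80 without.

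Lists of ventral and interneuron fates had the lowest medians. Of 16 ventral-lateral midbrain and interneuron factors 6 were called, 5 negative and Olig2 positive (median -0.36). The 5 were Lhx1, a LIM homeobox factor (-1.26 ± 0.16 SE, adjusted p = 0.00733); Tal2, a bHLH factor of midbrain GABAergic neurons (-1.19 ± 0.19 SE, adjusted p = 0.0165); Foxn4, a forkhead factor of interneuron progenitors (-1.14 ± 0.18 SE, adjusted p = 0.0145); Gata2, a zinc-finger factor of midbrain GABAergic neurons (-1.13 ± 0.19 SE, adjusted p = 0.0178); and Pou4f1, a POU factor of the red nucleus and sensory neurons (-0.99 ± 0.19 SE, adjusted p = 0.0356). Lhx1 lay at 0.52 and 0.58 in d9 +Dox, 1.50 and 1.51 in d9 -Dox, -0.03 and -0.36 in d7 +Dox, and -0.59 and -0.40 in d7 -Dox. It was highest in d9 -Dox, followed by d9 +Dox, and lowest in the day 7 groups. Without Dox all 5 rose from day 7 to day 9, by 0.47 in Tal2 to 2.01 in Lhx1. Of 13 ventral telencephalon genes Gad1 and Gad2 were called (median -0.59, the lowest of the 36 lists); the list's median response was -1.21 at day 9 and -0.33 at day 7, and 7 members were lower with Dox at day 9, against 4 at day 7. Gad1, the second GABA-producing enzyme, had -0.88 ± 0.16 (SE, adjusted p = 0.0286) and lost its call without any single array (adjusted p 0.0532 to 0.115).

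Midbrain lists held few calls and in both directions. Of 16 dopaminergic genes 3 were called (median 0.16): Th was positive, and Calb1 and En1 were negative. Th encodes tyrosine hydroxylase, which starts the making of dopamine. Th lay at 0.91 and 0.63 in d9 +Dox, 1.12 and 1.23 in d9 -Dox, -0.63 and -1.25 in d7 +Dox, and 0.99 and 0.71 in d7 -Dox. At day 7 it was far lower with Dox, and at day 9 both groups were near the d7 -Dox level; its response was -0.41 at day 9, which did not pass, and -1.79 at day 7 (1.38 ± 0.30 SE, adjusted p = 0.0487). En1, a homeobox factor of the midbrain, was higher with Dox by 0.38 at day 9 and 1.20 at day 7 (-0.82 ± 0.18 SE, adjusted p = 0.0471). The calls of Th and En1 were close to the threshold: of the 8 fits that leave out an array Th was called in 1 and En1 in 0, with adjusted p 0.0554 to 0.157 and 0.0776 to 0.155 in the others. Of 15 floor plate genes Wnt5a was positive and Lmx1b negative (median -0.09). Wnt5a, a Wnt ligand, had a response of 2.10 at day 9 and 0.72 at day 7 (1.37 ± 0.22 SE, adjusted p = 0.0161). Lmx1b, a LIM homeobox factor, had -0.89 ± 0.17 (SE, adjusted p = 0.0353), and its dimmer probe set 0.22. Of 15 midbrain-hindbrain boundary genes Spry1 was positive and En1 and Lmx1b were negative (median 0.04).

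The cortical and hem lists each held 1 positive and 1 negative call. Of 17 cortical patterning genes, Nr2f1 was positive and Otx1 negative (median -0.19), while 12 members were lower with Dox on each of the days. Dmrta2, the gene of the transgene, is a member of this list. Its own difference is the list's median, and it is among the 12 on each day. A further count, at an unadjusted p under 0.05, held 14 of the 17 (7 positive, 7 negative), the highest share of the 36 lists. Nr2f1, the nuclear receptor COUP-TF1, faded: its response was -0.98 at day 9 and -1.97 at day 7 (0.99 ± 0.17 SE, adjusted p = 0.023). Otx1, a homeobox factor, grew: its response was -3.82 at day 9 and -2.39 at day 7 (-1.43 ± 0.23 SE, adjusted p = 0.0165), and it fell by 1.78 with Dox between the days. Of 18 cortical hem and Cajal-Retzius genes Wnt5a was positive and Rspo1, a Wnt agonist, negative (median 0.06); Rspo1 had -1.15 ± 0.24 (SE, adjusted p = 0.0449) and lost its call without any single array (adjusted p 0.0503 to 0.141). Of 19 Hox and caudal progenitor genes 1 was called, Nkx1-2 (-1.35 ± 0.27 SE, adjusted p = 0.0401, median 0.08).

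Neuronal lists diverged from each other. Of 19 pan-neuronal genes the limma fit called 0, with 6 at an unadjusted p under 0.05 and 0 with robust eBayes (median 0.06). Their median response was -0.54 at day 9 and -0.56 at day 7, with 13 and 12 members lower with Dox on those days. Of 17 proneural and neurogenic bHLH factors 3 were called, all positive (median 0.27): Neurod6, Olig2 and Tcf4. Neurod6, a bHLH factor of cortical excitatory neurons, lay at 1.52 and 1.20 in d9 +Dox, 0.13 and 0.08 in d9 -Dox, -0.26 and -0.19 in d7 +Dox, and -0.04 and 0.04 in d7 -Dox. Only d9 +Dox was high, and the other groups lay together near the median (1.49 ± 0.16 SE, adjusted p = 0.00465), although its recovered level was under 2. Tcf4, a partner of proneural factors, had 0.64 ± 0.11 (SE, adjusted p = 0.0243), with 4 of 6 probe sets left out as dimmer, 1 of which had -0.14. Of 15 synaptic vesicle genes Syt4, a synaptotagmin, was called (-1.17 ± 0.17 SE, adjusted p = 0.0131, median -0.32). Of 11 neurotransmitter identity genes Gad1 and Gad2 were called (median -0.18), of 17 receptor genes Gabra3, a GABA receptor subunit (-1.24 ± 0.21 SE, adjusted p = 0.0204, median -0.23), and of 16 voltage-gated channel genes Scn2a, a sodium channel (-1.16 ± 0.21 SE, adjusted p = 0.0267, median -0.16). The dimmer probe set of Gabra3 had a difference of 0.01. Syt4, Gad1, Gad2 and Scn2a rose between the days on both sides, and rose more without Dox.

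Axon guidance genes split within a receptor family. Of 25 such genes 4 were called (median 0.18). Unc5c and Unc5d are both netrin receptors of the Unc5 family: Unc5c had 1.22 ± 0.24 (SE, adjusted p = 0.0359) and Unc5d -1.10 ± 0.16 (SE, adjusted p = 0.012). Unc5c fell by 1.19 between the days without Dox, whereas Unc5d rose by 1.09 with Dox and 2.19 without it. Epha7, an ephrin receptor, faded (1.11 ± 0.22 SE, adjusted p = 0.0356), and Efnb2, an ephrin ligand, emerged (1.11 ± 0.22 SE, adjusted p = 0.0396), with 1 of its 3 dimmer probe sets at -0.05; the mean of all 4, 0.40, was not called (adjusted p = 0.189). Of 16 neural progenitor and radial glia genes only Fabp7 was called (median -0.02), and of 12 glial genes 0, with 1 at an unadjusted p under 0.05 and 0 with robust eBayes (median 0.18).

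Lists of non-neural cells were mostly positive. Of 17 simple epithelium and placode genes 4 were called, all positive: the adhesion genes Cdh1, which encodes E-cadherin (0.76 ± 0.12 SE, adjusted p = 0.0149), and Epcam (0.96 ± 0.21 SE, adjusted p = 0.0496), the tight junction gene Cldn6 (0.87 ± 0.12 SE, adjusted p = 0.0115) and the desmosome gene Dsp (1.11 ± 0.18 SE, adjusted p = 0.0165). The median difference was 0.58; the median response was 1.19 at day 9 with 12 members higher with Dox, against 0.42 with 8 at day 7. The mean of the list's values was 0.61 and 0.49 in d9 +Dox, -0.47 and -0.56 in d9 -Dox, 0.33 and 0.38 in d7 +Dox, and -0.20 and -0.18 in d7 -Dox. The d9 +Dox arrays were the highest and the d9 -Dox arrays the lowest, with day 7 between. Cdh1 did not pass a change with Dox between the days (0.10) and fell by 0.66 without it. The dimmest probe set of Dsp had -0.24, and Epcam lost its call without any single array (adjusted p 0.0695 to 0.158). Fewer cells of a type and less RNA per cell cannot be told apart in these bulk samples.

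Of 19 collagen and mesenchyme genes Foxc2 alone was called, but 17 had a positive difference (median 0.62), and 13 had an unadjusted p under 0.05. The mean of the list was 0.29 and 0.16 in d9 +Dox, -0.34 and -0.24 in d9 -Dox, -0.21 and -0.28 in d7 +Dox, and -0.13 and -0.08 in d7 -Dox. The d9 +Dox arrays were the highest group. Of 14 neural crest genes Erbb3, a neuregulin receptor, was positive (1.27 ± 0.28 SE, adjusted p = 0.0497), and the transcription factors Tfap2a (-0.83 ± 0.15 SE, adjusted p = 0.0287) and Pax7 (-0.74 ± 0.15 SE, adjusted p = 0.0402) were negative (median 0.32). The dimmer probe set of Pax7 had 0.08. Of 18 ES-cell genes Sall4, a zinc-finger factor of pluripotency, was called (0.67 ± 0.13 SE, adjusted p = 0.0389, median 0.26). From day 7 to day 9, 13 of the 18 rose and 1 fell with Dox (median change 0.86). Without Dox 12 rose and 3 fell (median change 0.67). Over all genes 10% rose and 6.19% fell with Dox, and 7.88% rose and 7.11% fell without it. The list thus did not show the loss of pluripotency genes described above between these days. Of 17 mesoderm and endoderm genes Sox7 (0.73 ± 0.15 SE, adjusted p = 0.0419) was positive and Tbx6 (-1.13 ± 0.24 SE, adjusted p = 0.0457) negative (median 0.25). Of 13 endothelial and blood genes Tek, an angiopoietin receptor, was called (0.79 ± 0.17 SE, adjusted p = 0.0484, median 0.15). The part of a change in cell types in the other results was not tested.

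DNA replication genes were mostly positive, with few calls. Of 20, the helicase subunits Mcm2 (0.48 ± 0.11 SE, adjusted p = 0.0497) and Mcm3 (0.59 ± 0.11 SE, adjusted p = 0.0278) were called, and 17 had a positive difference (median 0.32). At day 9 the response was called higher with Dox in 15, against 1 at day 7 (16.9% and 3.08% of all genes). The mean of the list was -0.06 and -0.18 in d9 +Dox, -0.54 and -0.55 in d9 -Dox, 0.09 and 0.08 in d7 +Dox, and -0.07 and -0.08 in d7 -Dox. The low group was d9 -Dox. Of 19 mitosis genes Cenpe, a kinetochore motor, was called (0.61 ± 0.13 SE, adjusted p = 0.0497) and 17 were positive (median 0.13), with 13 higher with Dox at day 9, against 2 at day 7. Mcm2, Mcm3 and Cenpe fell between the days without Dox, by 0.64, 0.57 and 0.53, and their changes with Dox did not pass. In the fits that leave out an array Mcm2 and Cenpe were called in 0 of 8 and Mcm3 in 1, with adjusted p 0.0556 to 0.173, 0.0645 to 0.159 and 0.0629 to 0.115 in the others, and 1 dimmer probe set of Mcm3 had -0.06. The 4 lists chosen as comparators had 0 calls in the limma fit and 0 with robust eBayes. The 14 cell cycle inhibitor and p53 target genes had a median of 0.16 with 4 at an unadjusted p under 0.05, and the 13 cholesterol synthesis genes -0.05 with 3. The 15 integrated stress response genes had -0.04 with 4, and the 12 respiratory chain genes 0.08 with 3.

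A gene's value here rests on its brightest probe sets, and the mean of all its probe sets gave another value for 33 of the 82 named genes. Of these 33, 17 were then not called. Beside G630016G05Rik, Cdon and Efnb2 they were Etv4 (0.68, adjusted p = 0.0926), Gabra3 (-0.62, 0.0608), Nkx1-2 (-0.56, 0.124), Lmx1b (-0.34, 0.412), Pax7 (-0.33, 0.467), Erbb3 (0.71, 0.0542), Scn2a (-0.72, 0.0571), Sall4 (0.38, 0.212) and Jag1 (-0.50, 0.187), whose differences shrank by over 1.5 times. Wnt5a (1.17, 0.0504), Epcam (0.69, 0.146), Tcf4 (0.47, 0.112), Mcm3 (0.46, 0.0795) and Cenpe (0.63, 0.288) were closer to the values above. Beside Mcoln3 and Calb1, the called genes whose differences shrank by over 1.5 times were Sez6l (-1.14), Il17rd (1.13), Inhbb (0.92), Snhg11 (-0.90) and Dsp (0.66). The call was also not kept in 5 genes whose own value was the same, Th, En1, Egr1, Tek and Mcm2 (adjusted p 0.051 to 0.0599).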

How the data were processed

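Total RNA was DNase-treated, and 5 ng was amplified and biotin-labelled with a NuGEN kit, per the labels' protocols. Per the submitters' processing notes the authors used RMA; no version, build or log base is given in the sources used here, and log2 was assumed, since the deposited log2 values are centred on each probe set's median over 12 arrays (within 5e-07). Scanner files were not analysed here. Of 45101 probe sets 34945 had 1 gene symbol in the platform annotation; 932 had several and 9160 none. A gene's value was the mean of its probe sets in the highest recovered level class, with no filter on dim genes, giving 18193 genes. The class came from the spacing of single-precision values. It was right for 97.6% of 20000 simulated probe sets that were built with that spacing. The simulation therefore does not test whether the deposited values were made in this way.

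A group-means model over all 12 arrays was fitted with limma 3.58.1 in R 4.3.3 (eBayes, 6 residual and 3.59 prior degrees of freedom; Benjamini-Hochberg adjustment over all genes; threshold 0.05). In simulated data for the difference between days, 70 of 100 genes given a log2 change of 1, and 100 of 100 given 2, were recovered. Of the 17993 genes given no change, 11 were called. The simulated noise had the same spread in every group and was drawn separately for each gene and array. It thus holds neither the wider replicate spread of d9 +Dox nor a shift shared by the genes of an array. These counts therefore do not give the error rate of the calls reported above. The number of arrays, 2 a group, limits the precision. Python 3.11.15 with pandas 2.3.3 read the tables. The genes and the 36 lists were chosen with earlier results of these data known. Named by rule were Dmrta2, the 5 largest emerged and grown and the 3 largest faded and turned genes in each direction. Members of the lists could be named beside these, called or not. Alternatives were another set of arrays, a replicate block, array weights, re-centring, level filters, all probe sets, robust eBayes, single probe sets and leaving out each array.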

Additional observations from a re-analysis of the deposited data

Results flagged for a closer look

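The Dox response differed between day 9 and day 7 in 441 genes, by limma's test of the difference itself, and for that reason they are given here. Those named above follow, each with the day 9 response minus the day 7 response on the log2 scale in brackets. Groups hold 2 arrays, so no array was tested as standing apart from its group.

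The following 27 kept their call in all fits that leave out an array and under every other setting tried that included them: Pla2g7 (2.56), Mcoln3 (2.32), 3110039M20Rik (2.04), Crhbp (-2.32), Calb1 (-2.32), Lamp5 (-2.03), Wif1 (2.01), Bnc1 (1.87), Krtap17-1 (1.80), Shox2 (-2.05), Gad2 (-1.66), 4930578M01Rik (-1.58), Snhg11 (-1.49), Rab26os (-1.48), Wfdc1 (1.91), Prss23 (1.90), Sez6l (-2.25), Elfn1 (-1.72), Car3 (-1.36), Olig2 (2.59), Shisa3 (2.02), Neurod6 (1.49), Fabp7 (1.55), Notum (1.32), Il17rd (1.78), Inhbb (1.74) and Fst (1.54). A further 5 kept it whichever array was left out but not under some other setting: Foxc2 (1.80), Sparcl1 (1.73), Lhx1 (-1.26), Etv4 (1.59) and Cdon (1.20).

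The other 50 lost their call in at least 1 of the 8 fits that leave out an array. Of them 11 kept it in at least 4 of the fits: Cntn6 (2.29), Ddn (1.90), Syt4 (-1.17), Otx1 (-1.43), Wnt5a (1.37), Foxn4 (-1.14), Spry1 (1.25), Cldn6 (0.87), Dsp (1.11), Crabp1 (-0.89) and Unc5d (-1.10). Another 31 kept it in 1 to 3 of the fits: P2ry14 (2.10), 4930481B07Rik (-1.90), Minar2 (-1.89), G630016G05Rik (-1.54), Tle2 (-1.45), Mab21l1 (1.73), Tcf4 (0.64), Nr2f1 (0.99), Lmx1b (-0.89), Th (1.38), Pou4f1 (-0.99), Gata2 (-1.13), Tal2 (-1.19), Nkx1-2 (-1.35), Pax7 (-0.74), Tfap2a (-0.83), Erbb3 (1.27), Cdh1 (0.76), Sall4 (0.67), Sox7 (0.73), Tek (0.79), Mcm3 (0.59), Dusp6 (1.17), Egr1 (0.68), Jag1 (-0.79), Id3 (1.11), Gabra3 (-1.24), Scn2a (-1.16), Unc5c (1.22), Epha7 (1.11) and Efnb2 (1.11). In 8 it was kept in 0 of the fits: Defa31 (-1.77), Gad1 (-0.88), Rspo1 (-1.15), En1 (-0.82), Epcam (0.96), Tbx6 (-1.13), Mcm2 (0.48) and Cenpe (0.61). Leaving out an array also removes a replicate, and the part of that in these losses was not tested.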

How the results depend on the processing

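The number of called genes depended strongly on which arrays entered. Leaving out single arrays gave 84 to 583 genes (48 to 371 positive, 31 to 212 negative, 77 to 274 at 2-fold; emerged 51 to 435, grown 12 to 70, faded 9 to 50, turned 6 to 27, with no called response on either day 0 to 1). The count was 84 without replicate 1 of d7 -Dox, 141 without replicate 2, 104 and 84 without replicates 1 and 2 of d7 +Dox, 116 and 203 without those of d9 -Dox, and 220 and 583 without those of d9 +Dox. A group left with 1 array was assumed to vary like the others. Fitting only the 8 rtTA-Dmrt5 arrays gave 250 (149 positive, 101 negative, 161 emerged, 31 faded). With the replicate number as a replicate block within line and day, 115 were called (74 positive, 41 negative, 106 at 2-fold; 62 emerged, 22 grown, 22 faded, 9 turned). The sources used here do not say whether equal replicate numbers mark paired samples. With group means taken off, replicate 1 with Dox and replicate 1 without Dox correlated at 0.109 in rtTA-Dmrt5 at day 9. The same measure was -0.049 in rtTA-Dmrt5 at day 7 and 0.018 in rtTA at day 7. These values do not settle whether samples were paired. Keeping genes with a recovered level of at least 4 gave 694 (399 positive, 295 negative; 489 emerged, 100 grown, 31 turned, 3 with no called response on either day), and of at least 8 gave 653 (382 positive, 271 negative), where 157 of the same 5981 genes were called as reported, with 487 emerged, 95 grown, 7 with no called response on either day and 52 at 2-fold. The mean of all probe sets gave 280 (156 positive, 190 emerged, 39 grown). Array weights gave 35 turned genes, and re-centring 1 gene with no called response on either day. Single probe sets gave 359 calls among 34945. The cause of these changes was not tested. The share of positive calls was 53.9% to 69.2%, against 59.0% as reported. Of the 441 genes 440 kept their direction under all settings tried that included them. Most settings could not turn a direction, because they change the spread or the genes tested and leave the difference itself as it was. Only leaving out an array, the mean of all probe sets and re-centring can change the difference, so this count says little beyond those. Of the 82 genes named by size or as list members 27 kept direction and call and 43 kept the call with the replicate block. The uncalled difference of Dmrta2 changed sign without replicate 1 of d7 +Dox (0.21) and without replicate 2 of d9 +Dox (0.23); leaving out single arrays put it between -0.61 and 0.23. Of 4957 genes at a level under 4, 37 were called, and the part of low signal in this was not tested.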

Other observations

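Beyond the lists described above, 3 groups of genes stood out among the 441 and were chosen after their values were seen; all measured members of each were then counted. Their counts support nothing, and over all genes the difference was called positive in 1.43% and negative in 0.995%. Of 19 basement membrane genes 5 were called, all positive, and 17 had a positive difference (median 0.58). The 5 were the laminin chains Lamc1 (1.14 ± 0.18 SE, adjusted p = 0.0145) and Lamb1 (0.77 ± 0.16 SE, adjusted p = 0.0395), Nid1 (1.33 ± 0.23 SE, adjusted p = 0.023) and Nid2 (0.90 ± 0.14 SE, adjusted p = 0.0135), which link laminin to collagen IV, and Fbln2 (1.12 ± 0.18 SE, adjusted p = 0.0165). Nid1 lay at 1.67 and 1.65 in d9 +Dox, -0.02 and 0.12 in d9 -Dox, 0.21 and 0.26 in d7 +Dox, and 0.02 and -0.11 in d7 -Dox, high in d9 +Dox alone. Nid2 lay at 0.64 and 0.55 in d9 +Dox, -0.65 and -0.80 in d9 -Dox, 0.48 and 0.54 in d7 +Dox, and 0.16 and 0.02 in d7 -Dox, low in d9 -Dox. With Dox 5 members rose between the days and 0 fell, against 10% and 6.19% of all genes. Without Dox 1 rose and 9 fell, against 7.88% and 7.11% of all genes. Without single arrays these calls were kept in 4 (Lamc1), 1 (Lamb1), 1 (Nid1), 5 (Nid2) and 2 (Fbln2) of 8 fits.

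Of 22 interferon-stimulated genes 7 were called, all positive (median 0.39): Irgm2, Parp9, Bst2, Ddx58, Trim25, Ube2l6 and Ifitm3, from 1.34 in Irgm2 to 0.81 in Ifitm3. Ube2l6 was a faded decrease: its response was -0.81 at day 7, and at day 9 it was 0.04 and did not pass. Trim25, a ubiquitin ligase that activates the viral RNA sensor encoded by Ddx58, lay at 1.15 and 1.24 in d9 +Dox, -0.18 and -0.08 in d9 -Dox, 0.50 and 0.49 in d7 +Dox, and 0.23 and -0.05 in d7 -Dox, with d9 +Dox highest (0.92 ± 0.15 SE, adjusted p = 0.0166); Ddx58 had 1.15 ± 0.21 (SE, adjusted p = 0.0286). At day 9 the response was called higher with Dox in 11 members, against 1 at day 7 (16.9% and 3.08% of all genes), and the parental line at day 7 had 0 calls, as over all 18193 genes. Classical members such as Ifit1 (0.62), Irf7 (0.03) and Rsad2 (-0.16) did not pass. The calls were kept in 0 to 4 of 8 fits without single arrays.

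Of 24 hypoxia response and glycolysis genes 5 were called, all negative, and 4 had a positive difference (median -0.29). Pdk1, a kinase that keeps pyruvate out of the citric acid cycle, lay at -0.27 and -0.15 in d9 +Dox, 0.89 and 0.79 in d9 -Dox, -0.25 and -0.22 in d7 +Dox, and -0.59 and -0.56 in d7 -Dox. The d9 -Dox arrays alone were high, and its difference, -1.39 ± 0.19 (SE, adjusted p = 0.00891), was called in 8 of 8 fits without single arrays. Ankrd37 had -0.97, the neuronal enolase Eno2 -0.78, the muscle enolase Eno3 -0.69 and the mitophagy gene Bnip3 -0.68. These were called in 3 (Ankrd37), 3 (Eno2), 0 (Eno3) and 0 (Bnip3) of the 8 fits. Between the days 11 members rose without Dox and 0 fell, against 5 and 3 with Dox. Over all genes 7.88% rose and 7.11% fell without Dox, and 10% rose and 6.19% fell with it. Vegfa (-0.55), Ldha (-0.36) and Pgk1 (-0.14) did not pass.

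Of 10092 probe sets with several gene symbols or none, fitted and adjusted apart from the genes, 9 were called in the difference (0.0892%), 3 positive and 6 negative.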
